A study of Homo sapiens with 2 samples.

Results

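The subject is 8 androgen-regulated or luminal genes of the prostate (ACP3, STEAP2, STEAP4, NDRG1, KLK3, TMPRSS2, FOXA1 and HOXB13), of 20037 protein-coding genes placed on chromosomes 1 to 22, X and Y. Each was taken with its locus, the gene plus 500 kb on either side. The genes were picked with their peaks in these data known, ACP3, STEAP2 and NDRG1 as genes with a peak and the others as genes without, so which of them has a peak at the gene is a description and no test. The data are open-chromatin peaks from ATAC-seq, in which the Tn5 transposase inserts adapters into accessible DNA. The cells were C4-2 (C42 in the labels), a castration-resistant human prostate cancer line derived from LNCaP, grown in RPMI with 10% FBS. There were 2 libraries: the control group carried a control shRNA (shCTR), and the knockdown group an shRNA against WHSC1 (shWHSC1), the gene of the histone H3 lysine methyltransferase NSD2. With 1 library per group and no replicate, the spread between replicates is unknown, and no p-value is given.

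Luminal cells line the prostate glands and make the secreted proteins of seminal fluid. Androgens drive the luminal program mostly through enhancers, at sites that the pioneer factor FOXA1 opens and where the homeobox protein HOXB13 often binds as well. Androgen-induced genes include secreted proteases such as KLK3 (prostate-specific antigen), the membrane protease TMPRSS2 and metalloreductases of the STEAP family.

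The authors called broad peaks in each library separately. Each peak carries their fold enrichment over the local background of its own library and their −log10 q, the strength of the call after correction for multiple testing. The lists held 2010 control and 2418 knockdown peaks on GRCh38, and their read depth is unknown. A gene without a peak is therefore a gene without a call, not one shown to be closed: of 8 housekeeping genes, which are active in nearly all cells, PGK1 alone had a peak, in the control (4.15-fold), and ACTB and GAPDH had none. Of the luminal markers KLK3, ACP3, KRT8, KRT18 and HOXB13 only ACP3 had one. None of 4 basal, 4 leukocyte and 4 stromal or endothelial markers had one in either library, and of 4 neuroendocrine markers SYP had one in the control. The lists are thus too sparse to check the cell type against its markers.

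The bases just before the gene starts are shown for the 5 genes with an entry in the RefSeq promoter table (GRCh38.p14), because the called and the uncalled genes can be compared there letter by letter. Each run gives the 250 bases before the start, 5′ to 3′ on the gene's own strand. For ACP3 (chr3:132317157-132317406, plus strand) and STEAP2 (chr7:90211490-90211739, plus strand), capitals mark the bases under the control peak, 94 and 171 of the 250. For KLK3 (chr19:50854665-50854914, plus strand), STEAP4 (chr7:88306895-88307144, minus strand) and FOXA1 (chr14:37595250-37595499, minus strand), which had no peak there, capitals mark matches to the motifs listed further on.
ACP3: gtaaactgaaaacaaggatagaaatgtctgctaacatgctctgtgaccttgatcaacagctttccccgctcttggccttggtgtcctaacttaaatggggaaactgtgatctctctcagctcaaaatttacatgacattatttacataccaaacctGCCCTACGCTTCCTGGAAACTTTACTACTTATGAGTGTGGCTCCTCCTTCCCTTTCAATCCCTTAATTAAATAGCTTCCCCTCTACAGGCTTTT
STEAP2: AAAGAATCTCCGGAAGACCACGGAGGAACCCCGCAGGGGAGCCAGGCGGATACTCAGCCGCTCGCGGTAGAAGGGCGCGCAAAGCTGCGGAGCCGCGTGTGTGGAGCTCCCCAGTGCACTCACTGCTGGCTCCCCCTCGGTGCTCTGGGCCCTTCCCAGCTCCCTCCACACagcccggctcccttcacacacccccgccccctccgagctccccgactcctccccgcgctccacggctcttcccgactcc
KLK3: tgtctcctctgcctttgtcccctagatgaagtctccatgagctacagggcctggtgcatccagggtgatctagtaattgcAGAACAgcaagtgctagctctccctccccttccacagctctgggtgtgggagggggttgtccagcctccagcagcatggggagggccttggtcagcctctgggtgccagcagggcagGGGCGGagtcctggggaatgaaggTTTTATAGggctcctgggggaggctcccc
STEAP4: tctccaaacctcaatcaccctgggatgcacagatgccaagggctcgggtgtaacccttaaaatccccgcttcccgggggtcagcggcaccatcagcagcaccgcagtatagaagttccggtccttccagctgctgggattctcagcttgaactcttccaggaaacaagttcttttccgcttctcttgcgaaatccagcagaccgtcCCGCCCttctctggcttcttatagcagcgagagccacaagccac
FOXA1: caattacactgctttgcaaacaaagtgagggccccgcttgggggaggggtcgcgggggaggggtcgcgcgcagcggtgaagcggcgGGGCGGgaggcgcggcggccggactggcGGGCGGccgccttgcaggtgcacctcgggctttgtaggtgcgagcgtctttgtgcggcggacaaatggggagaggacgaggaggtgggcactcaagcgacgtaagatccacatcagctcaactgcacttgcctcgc

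A peak lay in the gene or within 3 kb of it at 3 of the 8 genes in the control (ACP3, STEAP2 and NDRG1) and at 2 of 8 in the knockdown (ACP3 and STEAP2). Over all protein-coding genes the control share was 7.64% and the knockdown share 9.26%. Peaks in both libraries were found at 4.95% of genes, against ACP3 and STEAP2 here, and in the control only at 2.69%, against NDRG1 here. Since these genes were picked by their peaks, nothing is read from these counts. None of these peaks reached a −log10 q of 5, and at a limit of 2 ACP3 lost its knockdown call and STEAP2 its control call. Each of the 3 genes had a peak at its start, and the plot of peak extents shows that these were placed differently around it. STEAP2 also had a knockdown peak beyond its other end.

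ACP3 encodes prostatic acid phosphatase, a secreted luminal enzyme (chromosome 3, 132317407 to 132368302, 50.9 kb). Its peaks crossed the RefSeq start in both libraries. The control peak ran from 94 bp before the start to 287 bp after it (132317313 to 132317694), with 3.54-fold enrichment and a −log10 q of 3.13. The knockdown peak ran from 89 bp before to 343 bp after the start (132317318 to 132317750), with 2.83-fold enrichment and a −log10 q of 1.27. The 2 peaks shared 377 bp, so this was the same site called in both libraries. In the control it ranked 1095th of 2010 peaks by fold, near the middle of the list. In the knockdown it ranked 2390th of 2418, near its end.

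STEAP2 encodes a metalloreductase that reduces iron and copper at the membrane (chromosome 7, 90211740 to 90243408, 31.7 kb). Both libraries had a call at its start, but not at the same place. The control peak lay upstream, from 920 to 80 bp before the start (90210820 to 90211660), with 2.97-fold enrichment and a −log10 q of 1.16. The knockdown peak lay inside the gene, from 71 to 518 bp after the start (90211811 to 90212258), with 3.24-fold enrichment and a −log10 q of 2.36. A gap of 150 bp separated them, so STEAP2 has a call in each library but no shared peak by the rule of at least 1 bp of overlap. With 1 kb allowed between peaks they would count as shared. With 1 library per group, the difference in place cannot be told apart from variation between libraries. Both peaks also lay at the start of STEAP2-AS1, a long noncoding RNA gene that runs away from STEAP2 on the other strand, and cannot be assigned to STEAP2 alone. A further knockdown peak lay 1654 bp beyond the other end of STEAP2 (90245062 to 90245335, 2.93-fold, −log10 q 1.16). It covered the start of the next gene, CFAP69, a sperm flagellum protein, and is counted at STEAP2 only by the 3 kb limit.

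NDRG1 encodes a stress-response protein that androgen and hypoxia induce (chromosome 8, 133237175 to 133297252, 60.1 kb). Its control peak lay 6 to 445 bp beyond the upper end of the gene (133297258 to 133297697), which is the upstream side, as NDRG1 is transcribed from the minus strand. It had the highest fold enrichment of the peaks at the 3 genes, 3.85, and the highest −log10 q, 3.82. In the knockdown no peak was called there, and the nearest one was 338 kb away, inside TG, the thyroglobulin gene (3.20-fold, −log10 q 2.38). With 1 library per group, this difference cannot be told apart from variation between libraries.

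**Figure D1:**
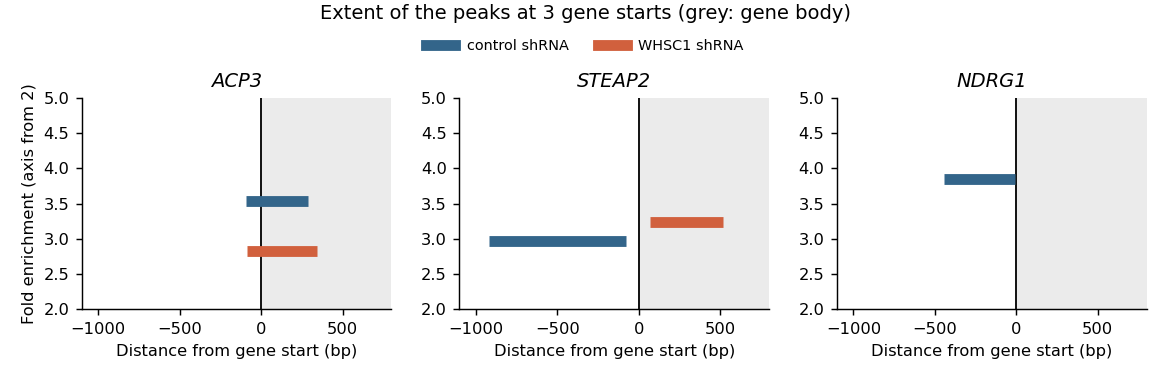
Peaks at the starts of ACP3, STEAP2 and NDRG1: distance from the gene start in bp (x) against the authors' fold enrichment (y, from 2), with each bar spanning 1 peak of the control (blue) or the knockdown (orange) and the gene body in grey. The ACP3 peaks overlap across the start, the STEAP2 peaks lie on opposite sides of it, and NDRG1 has a control peak alone.

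Letters of the promoter, here the 300 bases from 250 before to 50 after the start, did not separate called from uncalled genes. Among 13820 protein-coding promoters with such a sequence, the median GC content was 62.7% and the median number of CpG dinucleotides 22. The ACP3 promoter was 43.7% GC with 2 CpG, as the run printed for it shows, and 9.57% of promoters had a lower GC content. STEAP2, the other called gene of the table, was at the opposite side, with 70.3% GC and 28 CpG. The uncalled FOXA1 was close to STEAP2, with 69.3% GC and 34 CpG. KLK3 had as few CpG as ACP3, 2, at 61.0% GC, and STEAP4 stood between, with 18 CpG at 58.7% GC.

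Promoters as poor in GC as that of ACP3 rarely had a peak. Of 1541 promoters under 45% GC, a control peak overlapped 5 (0.324%, 95% exact Clopper-Pearson interval 0.105 to 0.756%) and a knockdown peak 10 (0.649%, interval 0.312 to 1.19%). ACP3 was among both. Between 55 and 65% GC the control share was 7.88% and the knockdown share 9.32%, and at 75% and above 2.70% and 2.46%. The other control promoters under 45% GC were those of EPM2A, SRI, RIOK2 and TMPRSS11F. SRI, which encodes the calcium-binding protein sorcin, is a neighbour of STEAP4, and its promoter held 37.0% GC and no CpG. All these intervals cover counting only. Whether base composition of the reads set which promoters were called was not tested.

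**Figure D2:**
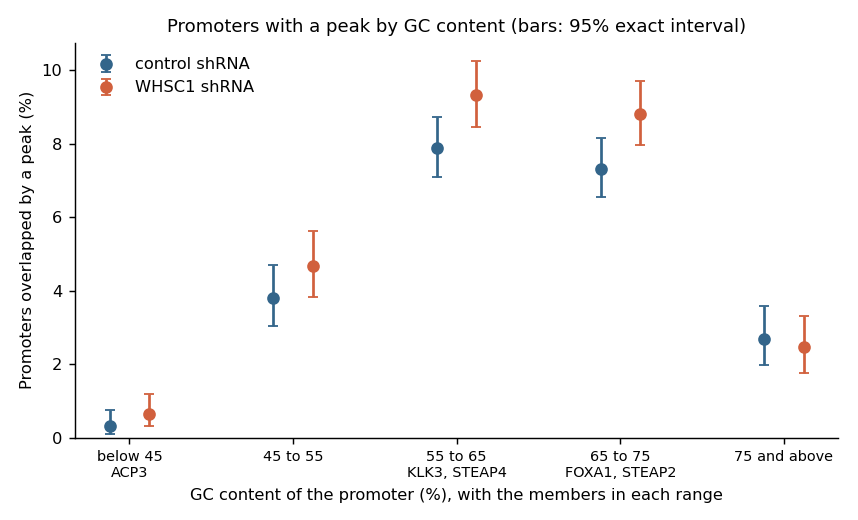
Share of protein-coding promoters (300 bases) overlapped by a peak (y, in percent, with 95% exact intervals) by GC content of the promoter (x, in percent), for the control (blue) and the knockdown (orange). The members are named under their range: ACP3 is in the lowest range, where 0.324% of promoters had a control peak.

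Motifs were searched as exact letters on both strands of the 300 bases. The palindromic androgen response element in its consensus form was in none of the 13820 promoters, those of the 5 genes included. Its single repeat AGAACA was in 11.0% of all promoters and, among the 5, in KLK3 alone, 170 bases before the start. In KLK3 the proximal androgen response element is known to lie there, with a partner site that departs from the consensus. The KLK3 promoter also held TATAAA on the other strand, 28 bases before the start (10.0% of all promoters), and TTTTATNG, a HOXB13 motif, which overlaps it (3.03%). The forkhead motif TGTTTAC (2.53% of all promoters), the HOXB13 motif CCAATAAA (0.781%), the CCAAT box CCAAT (37.1%) and the NRF1 motif (1.84%) were in none of the 5.

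The GC box GGGCGG, in 58.5% of all promoters, was in STEAP2, STEAP4, KLK3 and FOXA1. In STEAP2 it lay 56 bases before the start, outside the control peak, and the ETS motif CCGGAAG (14.6% of all promoters) lay 241 bases before the start, under that peak. ACP3, called in both libraries, held no match to any motif searched. Matches describe letters only, and a missing match says nothing of the factor.

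In all, the loci held 13 control peaks and 16 knockdown peaks. At least 1 peak lay in the locus of 4 of the 8 genes in the control and of 6 in the knockdown, against 35.6% and 43.5% of protein-coding genes. These counts include the peaks for which ACP3, STEAP2 and NDRG1 were picked, so nothing is read from them. In the knockdown ACP3 counts by its own peak alone, with 0 others in its locus. KLK3 and HOXB13 had peaks in the knockdown only, as did 15.2% of genes. TMPRSS2 and FOXA1 had none in either library, as did 49.2% of genes. The map of the loci shows where the peaks lay. The loci of ACP3, STEAP2 and NDRG1, all picked for a peak, and of STEAP4 held all 13 control and 13 of the 16 knockdown peaks.

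**Figure D3:**
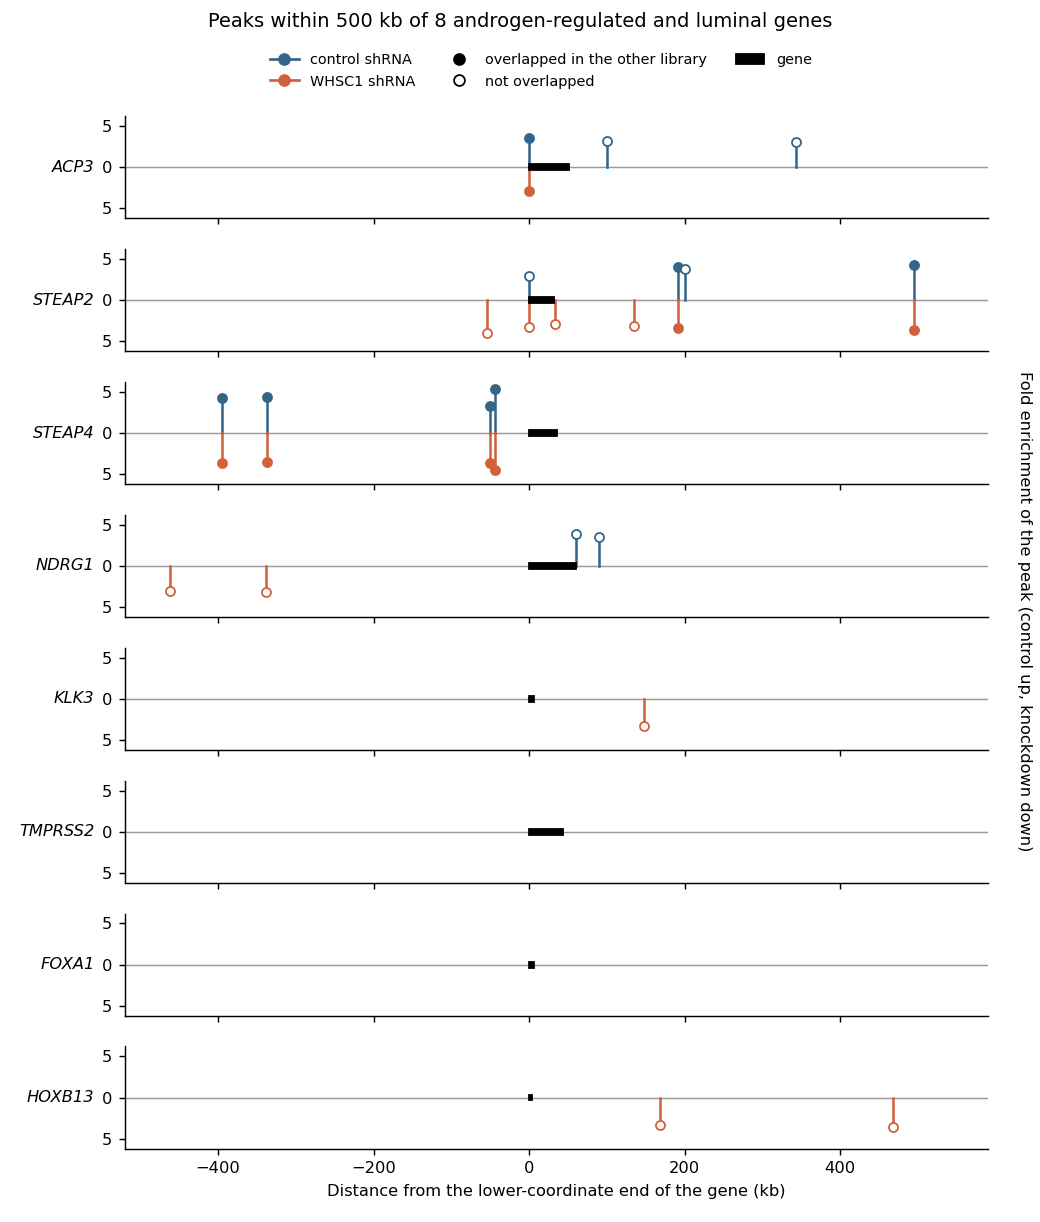
Peaks of the 8 loci: distance from the lower-coordinate end of each gene in kb (x) against the authors' fold enrichment (control upwards in blue, knockdown downwards in orange). Filled points are overlapped by a peak of the other library and open points are not, and black bars are the genes. The STEAP4 locus has 4 sites called in both libraries, the TMPRSS2 and FOXA1 loci have none.

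STEAP4, a second metalloreductase of the family, had no peak at the gene (chromosome 7, 88270892 to 88306894), yet its locus held the strongest calls of the 8 and the same 4 sites in both libraries. The start of SRI, 43.5 kb below STEAP4, had a control enrichment of 5.32-fold (88227067 to 88227388, −log10 q 8.53) and a knockdown enrichment of 4.52-fold (88227157 to 88227394, −log10 q 5.55). By fold this peak ranked 51st of the control list and 145th of the knockdown list. A second site covered the other RefSeq start of SRI, inside the gene, with a control enrichment of 3.32-fold and a knockdown enrichment of 3.63-fold. The noncoding gene SRI-AS1 also lies within 3 kb of both sites, which cannot be assigned to SRI alone. The start shared by DBF4, a regulator of the replication kinase CDC7, and SLC25A40, a mitochondrial carrier, had 4.26-fold and 3.64-fold enrichment. The start of ADAM22, a neuronal membrane protein, had 4.31-fold and 3.49-fold. No peak lay above STEAP4, where the next protein-coding gene, ZNF804B, is 453 kb away.

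The STEAP2 locus held 4 control and 6 knockdown peaks, and 2 of each were at the same site. The start of CLDN12, a tight-junction protein gene 160 kb above STEAP2, had a control enrichment of 4.04-fold and a knockdown enrichment of 3.39-fold. A site inside CDK14, a cyclin-dependent kinase gene, had 4.29-fold and 3.65-fold. In the control CLDN12 had another peak inside the gene (3.73-fold), with no call in the knockdown. In the knockdown, calls without a control peak lay inside STEAP1, the neighbouring family member (90157934 to 90158179, 3.94-fold, −log10 q 3.09), and at the start of GTPBP10, a GTPase gene (3.18-fold, −log10 q 1.49). The STEAP1 peak lay 3.47 kb from the nearer end of that gene, so it was not at its start. STEAP2-AS1 also lies within 3 kb of this peak, which cannot be assigned to STEAP1 alone. As many control peaks as at STEAP2 and STEAP4, 4, or more were in the loci of 4.19% of protein-coding genes, and 6 or more knockdown peaks in 1.03%. The median was 0 in both libraries, and the STEAP2 counts include the peaks for which it was picked.

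In the ACP3 locus the control had 2 further peaks, 1 of them at the start of DNAJC13, an endosomal DnaJ protein gene (132417175 to 132417748, 3.14-fold, −log10 q 1.56). Neither was called in the knockdown, where the ACP3 peak stood alone. The NDRG1 locus had 2 peaks per library and none in common. The control had a second peak 29.7 kb above the gene, beside the pseudogene RPL32P20 and outside protein-coding genes (3.52-fold, −log10 q 2.24). The knockdown had 1 inside TG and 1 at adjoining ends of PHF20L1 and TMEM71 (132775300 to 132775605, 3.03-fold, −log10 q 1.29).

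KLK3 had no peak at the gene (chromosome 19, 50854915 to 50860764) in either library. The knockdown had 1 peak in the locus, 142 kb above KLK3 and still in the kallikrein cluster (51002698 to 51002908, 3.34-fold, −log10 q 1.58). This peak lay inside KLK9 and 1.09 kb above the upper-coordinate end of KLK8. The nearest control peak was 763 kb away. HOXB13 (chromosome 17, 48724763 to 48728750) had 2 knockdown peaks in its locus. One lay 28 bp from the start of ATP5MC1, a subunit of the mitochondrial ATP synthase, 164 kb above HOXB13 (48892392 to 48892759, 3.38-fold, −log10 q 1.85). The other lay beside the glutamine tRNA gene TRQ-TTG1-1, 464 kb above HOXB13 (49192549 to 49192805, 3.59-fold, −log10 q 2.65). The nearest control peak was 2531 kb away.

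TMPRSS2 (chromosome 21, 41464305 to 41508158) lay farthest from any call. The nearest control peak was 31626 kb away and the nearest knockdown peak 8852 kb away. FOXA1 (chromosome 14, 37589552 to 37595249) had its nearest peak at the same site in both libraries, 733 kb below it in SLC25A21, a mitochondrial carrier gene, with a control enrichment of 3.89-fold and a knockdown enrichment of 3.48-fold. The limit of 500 kb fell in a gap between peaks. The outermost peak counted lay 464 kb from its gene, and the nearest ones left out lay 554 kb above NDRG1, at an overlapping site in both libraries (control 3.43-fold, knockdown 3.89-fold).

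The chromosomes are set here beside the split between genes picked with a peak and genes picked without one, as a description only. On every chromosome most protein-coding genes had no peak, so the lack of one at FOXA1 or STEAP4 is no exception. On chromosomes 3, 7 and 8, which hold ACP3, STEAP2, STEAP4 and NDRG1, 18.0%, 13.9% and 18.9% of protein-coding genes had a control peak in the gene or within 3 kb. On chromosome 19, which holds KLK3, 1 of 1451 genes had a control peak and 12 a knockdown peak. On chromosome 17, which holds HOXB13, these numbers were 10 and 12 of 1169 genes, and on chromosome 21, which holds TMPRSS2, 0 and 2 of 239. KLK3, HOXB13 and TMPRSS2 thus shared the lack of a call with nearly all genes of their chromosomes. On chromosome 14, which holds FOXA1, 8.93% of genes had a control peak and 12.4% a knockdown peak. The part of the chromosome in the calls at these genes was not tested.

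**Figure D4:**
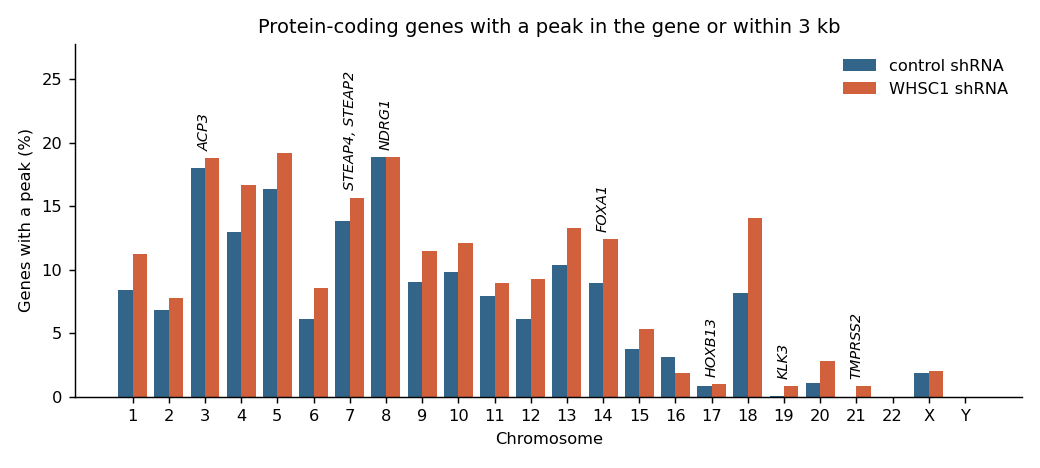
Share of protein-coding genes with a peak in the gene or within 3 kb (y, in percent) by chromosome (x), for the control (blue) and the knockdown (orange), with the 8 genes named above their chromosomes. The chromosomes of KLK3, HOXB13 and TMPRSS2 stand near 0, those of ACP3, NDRG1, STEAP2 and STEAP4 at 13.9% or above in the control.

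Gene density is set beside the same split, also as a description, and followed it only in part. KLK3 had 40 other protein-coding genes in its locus and HOXB13 23, against a median of 13 over protein-coding genes. ACP3 and NDRG1 had 6 each, STEAP4 7 and STEAP2 8. But TMPRSS2 also had 8, and FOXA1 only 3, the fewest, with no peak. Over all genes, 15.7% with 0 to 7 neighbours had a control peak (interval 14.7 to 16.7%), against 1.34% of those with 25 to 77 (interval 1.04 to 1.70%).

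**Figure D5:**
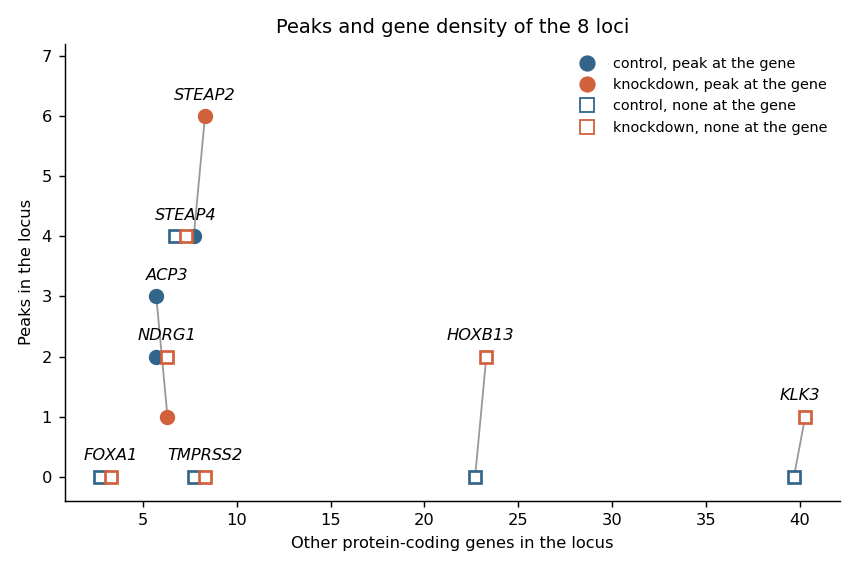
Peaks in the locus (y) against the number of other protein-coding genes in it (x) for the 8 genes, with the control (blue) and the knockdown (orange) of a gene set slightly apart and joined by a line, filled where a peak lay at the gene. TMPRSS2, with 8 neighbours, and FOXA1, with 3, had 0 peaks, while STEAP2, also with 8, had 4 and 6.

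The peaks of the loci, those that chose ACP3, STEAP2 and NDRG1 among them, are set here beside the whole lists. The intervals treat the peaks as independent, though many came from the same locus, and do not cover the spread between libraries. A knockdown peak overlapped 7 of the 13 in the control (53.8%, interval 25.1 to 80.8%), against 54.1% of all control peaks. A control peak overlapped 7 of the 16 in the knockdown (43.8%, interval 19.8 to 70.1%), against 44.7% of all. Control peaks had a median fold enrichment of 3.73 (95% order-statistic interval 3.14 to 4.29) and knockdown peaks one of 3.39 (interval 3.18 to 3.64), against 3.59 and 3.46 over the lists. An end of a protein-coding gene lay within 3 kb of 9 of the 13 control peaks and 11 of the 16 knockdown peaks (69.2% and 68.8%), against 51.0% and 50.1% of all peaks. The intervals of these shares, 38.6 to 90.9% and 41.3 to 89.0%, hold the values of the whole lists but are too wide to show that the peaks are alike. The peaks for which ACP3, STEAP2 and NDRG1 were picked all lay at gene ends and raise these shares, so nothing is read from them.

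The 7 shared sites came from 3 loci, 4 of them from that of STEAP4. The control fold was above the knockdown fold at 6 of the 7, with the second start of SRI as the exception (3.32 against 3.63). Over all 1087 such pairs of the lists the control fold was the higher in 54.4%. Each fold is relative to the background of its own library, the libraries were not scaled to each other, and sites of 1 locus are not independent, so no change at these genes is read from it.

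A wider list held 41 androgen-regulated and luminal genes, the 8 among them. A peak in the gene or within 3 kb was found for 8 of 41 in each library (19.5%), and 6 had one in both. At a −log10 q of at least 2, 4 of 41 had one in each library (9.76%), beside 4.36% (control) and 5.63% (knockdown) of all protein-coding genes. Leaving out the 8 genes above, this limit left 2 control genes (6.06%) and 3 knockdown genes (9.09%) of 33. With no limit on −log10 q and without the 8 genes, 5 of 33 had one in the control (15.2%) and 6 of 33 in the knockdown (18.2%). Over all protein-coding genes these shares were 7.64% and 9.26%. The wider list was fixed with earlier results of these data known, so these shares are a description and no excess is read from them. Among the transcription factor genes, GATA2, SPDEF and CREB3L4 had none, like FOXA1 and HOXB13. ZBTB16, an androgen-induced zinc finger repressor, had a shared peak deep inside the gene, 77.1 kb from its nearer end, with a control enrichment of 4.49-fold (−log10 q 5.27) and a knockdown enrichment of 4.02-fold. GRHL2, an epithelial transcription factor, had a control peak across its lower end and no knockdown call (3.27-fold, −log10 q 1.28). GRHL2-DT also lies within 3 kb of this peak, which cannot be assigned to GRHL2 alone.

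Of the secreted proteins and proteases ACP3 alone had a peak, and KLK2, KLK4, MSMB and AZGP1 had none. Of the membrane proteins STEAP2 and, in the knockdown, STEAP1 had one, while FOLH1 (prostate-specific membrane antigen), SLC45A3, TRPM8, TMEFF2 and ABCC4 had none. Of the androgen-induced enzymes and stress genes, 4 of 14 had one in each library, with NDRG1, picked for its peak, among the 4 in the control. Without NDRG1 these were 3 of 13 in the control (23.1%) and 4 of 13 in the knockdown (30.8%), beside the 7.64% and 9.26% of all protein-coding genes. At a −log10 q of at least 2, TPD52 alone of the 13 kept a peak, in each library. The list was fixed with earlier results of these data known, so nothing is read from these shares. ELL2, a transcription elongation factor, had a control enrichment of 3.18-fold (−log10 q 1.15) and a knockdown enrichment of 3.27-fold (−log10 q 1.73) at its upper end. CAST and LOC101929710 also lie within 3 kb of these peaks, which cannot be assigned to ELL2 alone. ACSL3, an acyl-CoA synthetase, had 3.40-fold (−log10 q 1.51) and 3.15-fold (−log10 q 1.36) at its start. TPD52 had 2 shared sites, 1 beside its lower end (3.40-fold and 3.38-fold), where MRPS28 also lies, and 1 inside it (3.65-fold and 3.57-fold), and its knockdown peak at the upper end (3.001-fold) had no control call. HERC3, a ubiquitin ligase gene, had a peak in the knockdown only, over an internal RefSeq start 68.3 kb from the nearer end (3.24-fold). FKBP5, PMEPA1 and the keratins KRT8, KRT18 and KRT19 had none.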

How the data were processed

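ATAC-seq of 2 C4-2 libraries was used, grouped by the condition label of each sample. The authors deposited 1 broad peak list per library, called separately and not pooled. The submitters' processing notes name MACS2, ChIPseeker 1.22.1, Picard 1.101, Bowtie2 2.2.9, CASAVA 1.8.2 and SAMtools 1.9, with GRCh38 as the build. Roles and options of these tools, the Tn5 shift and the treatment of duplicates are not stated in these notes, and they can move peak edges and calls near the threshold. The deposited values are a fold enrichment (the ratio to local background), −log10 p and −log10 q, and a score made from −log10 q. The weakest control peak had a −log10 q of 1.01 and the weakest knockdown peak 1.02. The files give no counts, so the depth is unknown.

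Genes and promoters came from RefSeq tables of the same build (GRCh38.p14). The gene table gives no strand, exons or UTRs. Promoter sequences matched 5 of the 8 genes, at the start that is an end of the gene. A peak was at a gene if it lay in it or within 3 kb, and in the locus within 500 kb. Peaks were shared with at least 1 bp of overlap. Coordinates are 1-based. The members, the wider list and the naming rule (the 8 genes, genes with a peak in their loci, the nearest gene or peak, and wider-list genes with a peak) were chosen with earlier results of these data known. EPM2A, RIOK2 and TMPRSS11F, and the base composition ranges, were taken after seeing the values. The values of some further genes are left out here. No test between libraries was made. The interval rules were checked on peaks planted within and beyond 3 kb of a gene, and 200 of 200 were judged correctly. Of copies of control peaks shifted so as to overlap the original or not, 201 of 201 were judged correctly. Scripts ran under Python 3.11.15 with scipy 1.17.1, pandas 2.3.3, matplotlib 3.10.9 and numpy 2.4.6. Alternatives were limits of 2 and 5 on −log10 q, lists of equal length, distances of 1 and 10 kb, gene ends only, windows of 250 and 1000 kb, 50% overlap, sharing within 1 kb and merging within 500 bp.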

Additional observations from a re-analysis of the deposited data

How the results depend on the processing

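Of 72 values under the alternatives, 52 stayed within 1.5 times a count, or within the counting interval of a share or median, and 20 did not. With a −log10 q of at least 5 in both lists, no member kept a peak at the gene in either library (0 and 0), and the wider list kept 1 control gene and 0 knockdown genes. The loci then held 2 control peaks and 1 knockdown peak, with a median fold enrichment of 4.79 and 4.52, all at gene ends (100% in each), and the knockdown peak was shared (100%). With a −log10 q of at least 2, members with a peak fell to 1 in the knockdown (STEAP2), the loci to 9 knockdown peaks, and the wider list to 4 genes in each library. With both lists at the same number of peaks, the knockdown had 1 member (STEAP2, as the ACP3 peak was left out) and 5 genes of the wider list. Counting gene ends only left 5 genes of the wider list in the knockdown. Windows of 250 kb held 10 knockdown peaks and windows of 1000 kb 23 control peaks. No paired analysis was possible because each group has 1 library. What limits these results is the number of peaks, the unknown read depth and the single library per group. Calls at ACP3 in the knockdown and STEAP2 in the control lie close to the authors' threshold.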

Other observations

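Of 45 relatives of the 8 genes by name, the 8 left out, 1 had a peak in the gene or within 3 kb in the control (2.22%) and 6 in the knockdown (13.3%), beside 7.64% and 9.26% of all protein-coding genes. Of the 21 outside the 8 loci these were 1 and 3. None of the 15 kallikrein genes of chromosome 19 had a control peak, and the single knockdown peak at KLK8 and KLK9 accounted for both of the 2 that had one there. None of 10 HOXB genes and none of 3 FOXA genes, HOXB13 and FOXA1 included, had a peak in either library, numbers of genes too small to set against those shares. Of 5 genes named STEAP, STEAP2 had a peak in both libraries and STEAP1 in the knockdown. Of 4 NDRG genes, NDRG4 had one in the knockdown only (3.07-fold, −log10 q 1.28), which also lay near SETD6, while NDRG1 had one in the control only.

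Of 15 TMPRSS genes, which encode membrane serine proteases related to TMPRSS2, TMPRSS11F on chromosome 4 had a peak at its start in both libraries, with a control enrichment of 4.67-fold (−log10 q 4.34) and a knockdown enrichment of 3.71-fold (−log10 q 2.31). TMPRSS7 had one inside the gene in the knockdown (3.74-fold). These families were chosen after the values of the 8 genes were seen, and are given as values only.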
